A study of Rattus norvegicus with 100 samples.

Results

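The proteasome genes of the rat were followed in the uterus and the pituitary gland after an estrogen. A gene was included where its symbol begins with Psma, Psmb, Psmc, Psmd, Psme, Psmf or Psmg and a probe set of that gene alone had a value on at least 50% of the arrays of a tissue. This rule, which used no measured change, gave 46 probe sets and 43 genes of the 10411 genes with a probe set of their own. Of these, 41 encode subunits, assembly chaperones or regulators of the proteasome. The other 2, Psmc3ip, a cofactor of meiotic recombination, and Psme3ip1, a nuclear protein that binds the Psme3 product, matched by symbol alone and are kept apart. The 6 probe sets shared with another gene were left out, so that Psmb6 and Psme3 are not analysed here, and neither are Psmc6, Psmd12, Psmd14, Psma8 and Psmb11. Of the 43 genes, 42 had a value on all 70 uterus arrays and 43 on all 30 pituitary arrays.

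The samples came from immature female rats in a uterotrophic assay, in which growth of the uterus reports an estrogenic compound. The groups were treated with ethinylestradiol (EE), a synthetic estrogen, and each had its own control group at the same time. For uterus the times were 2, 4, 8, 24, 28, 48 and 72 h (5 EE arrays and 5 control arrays per time), and for pituitary gland 4, 8, 24, 48 and 72 h (3 EE arrays and 3 control arrays per time). No strain, age in days, dose, route or dosing schedule is given in the labels. Nor is it stated that arrays came from different animals, so a p-value speaks for the spread between arrays, which may be technical.

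The proteasome is the main protease of the cytoplasm and nucleus. Its barrel, the 20S core, is built of rings of alpha and beta subunits, and only some beta subunits cut peptide bonds. The 19S cap recognises proteins tagged with ubiquitin, unfolds them with a ring of ATPases and feeds them into the barrel. Under interferon the catalytic subunits can be exchanged for those of the immunoproteasome, encoded by Psmb8, Psmb9 and Psmb10, which is known for making peptides for antigen presentation. The PA28 activator of Psme1 and Psme2 is induced by the same cytokine. In many cells, the transcription factor encoded by Nfe2l1 raises the standard subunit genes together through antioxidant response elements.

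Values are linear intensities of Affymetrix RAE230A probe sets as deposited. Uterus arrays carried 9338 to 10677 values each (median intensities 94.6 to 108), and pituitary arrays 9318 to 10135 (103 to 109.7). Changes are log2 differences, EE minus control, of intensity plus an offset of 30.4, given ± their standard error. Groups were of n = 5 in uterus and n = 3 in pituitary. Folds of dim genes are understated by the offset. The words rose and fell are kept for adjusted p-values under 0.05 (limma, Benjamini-Hochberg over every gene tested). Tissue labels were checked with markers: Myh11, Hoxa10 and Hoxa11 had values on all 70 uterus arrays, and Hoxa10 and Hoxa11 on 0 pituitary arrays. Prl, Gh1 and Cga had values on all 30 pituitary arrays and on 0 uterus arrays, while Pomc, the corticotroph marker, had a value on 1 pituitary array. Other markers had values in both tissues. Lhb had values on 50 uterus arrays and Tshb on 51, with means of 45.4 and 13.7, against 2627 and 3137 in pituitary. Gal had values on 19 uterus and 20 pituitary arrays and was brighter in uterus. Myh11 had values on 5 pituitary arrays, and Pgr, Acta2, Krt8 and Krt18 on all 30. Krt18 was brighter in pituitary (mean 355) than in uterus (275). RNA quality was read from Actb, as the log2 intensity of its 3' probe set minus that of its 5' probe set. This averaged lower with EE at every uterus time, such as 0.22 ± 0.09 on EE arrays and 0.50 ± 0.11 on control arrays at 8 h (SD). By array the measure ran from 0.07 to 1.07 in uterus and from 1.21 to 1.80 in pituitary, so the tissues did not overlap. Its part in the changes and tissue differences below was not tested. One control array of 8 h in uterus, number 25, held the highest control values of its time for Psmb8, Psmb9, Psmb10 and Psme2, and their 8 h values are given with and without it.

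Promoter sequences are shown for 5 genes, chosen because their windows hold the motif marked in them. They are windows of 300 bases from RefSeq (build GRCr8), from 250 bases before the annotated start to 50 bases after it, and 41 of the 43 genes had one. For Psmb5 (chr15:32047330-32047629, minus strand) and Psmd9 (chr12:39018215-39018514, minus strand), capitals mark TGACNNNGC, the core of the antioxidant response element. For Psmb8 (chr20:4656982-4657281, minus strand), Psmb10 (chr19:50743243-50743542, minus strand) and Psme2 (chr15:33052702-33053001, minus strand), capitals mark a pair of GAAA repeats 2 bases apart, the core of the interferon-stimulated response element. Sites were sought on both strands, and a site on the opposite strand reads as its reverse complement.
Psmb5: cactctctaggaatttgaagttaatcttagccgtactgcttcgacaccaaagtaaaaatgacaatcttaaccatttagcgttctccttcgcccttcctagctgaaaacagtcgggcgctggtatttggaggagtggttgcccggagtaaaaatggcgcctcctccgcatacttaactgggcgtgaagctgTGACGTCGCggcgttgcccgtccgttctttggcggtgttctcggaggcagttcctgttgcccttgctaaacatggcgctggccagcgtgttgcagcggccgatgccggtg
Psmd9: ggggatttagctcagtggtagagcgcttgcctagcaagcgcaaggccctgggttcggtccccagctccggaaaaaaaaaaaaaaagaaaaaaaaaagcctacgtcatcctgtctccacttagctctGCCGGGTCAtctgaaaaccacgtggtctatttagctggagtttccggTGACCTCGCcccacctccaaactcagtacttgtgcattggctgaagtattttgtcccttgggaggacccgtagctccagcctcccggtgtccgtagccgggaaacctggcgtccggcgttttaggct
Psmb8: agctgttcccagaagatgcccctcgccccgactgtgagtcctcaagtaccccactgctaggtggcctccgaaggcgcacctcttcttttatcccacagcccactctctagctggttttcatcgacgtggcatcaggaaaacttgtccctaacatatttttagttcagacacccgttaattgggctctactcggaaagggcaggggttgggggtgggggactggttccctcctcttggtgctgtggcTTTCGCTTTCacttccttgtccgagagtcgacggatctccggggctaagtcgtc
Psmb10: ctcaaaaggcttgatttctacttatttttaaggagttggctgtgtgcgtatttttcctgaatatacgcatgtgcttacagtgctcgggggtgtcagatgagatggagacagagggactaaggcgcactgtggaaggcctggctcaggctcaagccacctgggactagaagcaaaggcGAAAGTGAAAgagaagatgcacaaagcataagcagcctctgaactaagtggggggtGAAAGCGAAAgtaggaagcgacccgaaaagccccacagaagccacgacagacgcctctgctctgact
Psme2: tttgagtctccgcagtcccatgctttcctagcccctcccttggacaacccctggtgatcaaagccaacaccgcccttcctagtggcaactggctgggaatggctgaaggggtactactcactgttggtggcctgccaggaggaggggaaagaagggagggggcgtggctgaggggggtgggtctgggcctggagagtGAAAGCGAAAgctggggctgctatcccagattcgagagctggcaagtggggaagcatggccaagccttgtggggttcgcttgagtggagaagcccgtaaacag

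TGACNNNGC stood in 7 of 41 windows (Psma3, Psmb2, Psmb5, Psmd1, Psmd3, Psmd9 and Psme4), and in 12.1% of the 33469 windows of all genes. The pair of GAAA repeats, a motif added after the values were seen, stood in 7 of 41 windows (Psma4, Psmb3, Psmb8, Psmb10, Psmd7, Psme2 and Psmg4), and in 3.92% of all windows. Windows were also counted in groups chosen with earlier results known, with Psme4, Psmf1, Psmc3ip and Psme3ip1 left out. TGACNNNGC stood in 0 of 5 windows of the immunoproteasome and PA28 genes and in 6 of 32 of other core, cap and chaperone genes. The pair of GAAA repeats stood in 3 of those 5 windows, not in that of Psmb9 or Psme1, and in 4 of those 32. CCAAT stood in 22 of 41 windows and in 37.5% of all, and the estrogen response element, GGTCA and TGACC 3 bases apart, in 0 of 41 and in 0.0269% of all. Among these motifs a single overlap was found, of 1 base between CCAAT and TGACNNNGC in Psmb2. The windows of 12 genes, Psmc5, Psmc2 and Psme1 among them, held none of the 4 motifs. A match describes letters and does not show binding. In the genome Psmb8 and Psmb9 lie on chromosome 20 with Tap1 between them and Tap2 beside Psmb8, and Psme1 and Psme2 lie on chromosome 15 with only Emc9 between them.

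The first question was how the proteasome genes of the uterus responded to EE over time. At 2 h only Psmb5 passed, and at 4 h most genes of the core and cap rose. By the median of each role the rise was largest at 8 h for the barrel and the cap and smaller after it, while the changes of the immunoproteasome genes and Psme2 grew between 8 and 24 h and were still 0.86 to 1.80 at 72 h. At 2 h 1 of 43 genes rose and 0 fell, where 6.39% of all genes tested were called, 4.02% higher and 2.37% lower. At 4 h 27 rose and 4 fell (58.1% of all genes called, 23.6% higher and 34.5% lower). At 8 h 33 rose and 4 fell (64.4% of all called, 28.9% higher and 35.5% lower). The rise was most widespread at 24 h, where 38 rose and 2 fell (59.3% of all called, 24.9% higher and 34.4% lower). At 28 h 36 rose and 2 fell (62.9% of all called, 28.5% higher and 34.3% lower). At 48 h 33 rose and 3 fell (57.1% of all called, 24.2% higher and 33% lower). By 72 h fewer genes were called, with 22 that rose and 3 that fell (60.2% of all called, 23.3% higher and 36.9% lower). From 4 h on, well over 50% of all genes changed in uterus, so a call by itself sets a gene little apart. Higher calls made up the larger part of the calls among proteasome genes at each time, whereas lower calls did so among all genes from 4 h on. The median change of the 43 genes was 0.03 at 2 h, 0.24 at 4 h, 0.57 at 8 h, 0.49 at 24 and at 28 h, 0.35 at 48 h and 0.16 at 72 h. Over all genes tested the median lay between -0.08 and -0.02. In whole tissue, more cells of a type and more RNA per cell cannot be told apart.

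**Figure D1:**
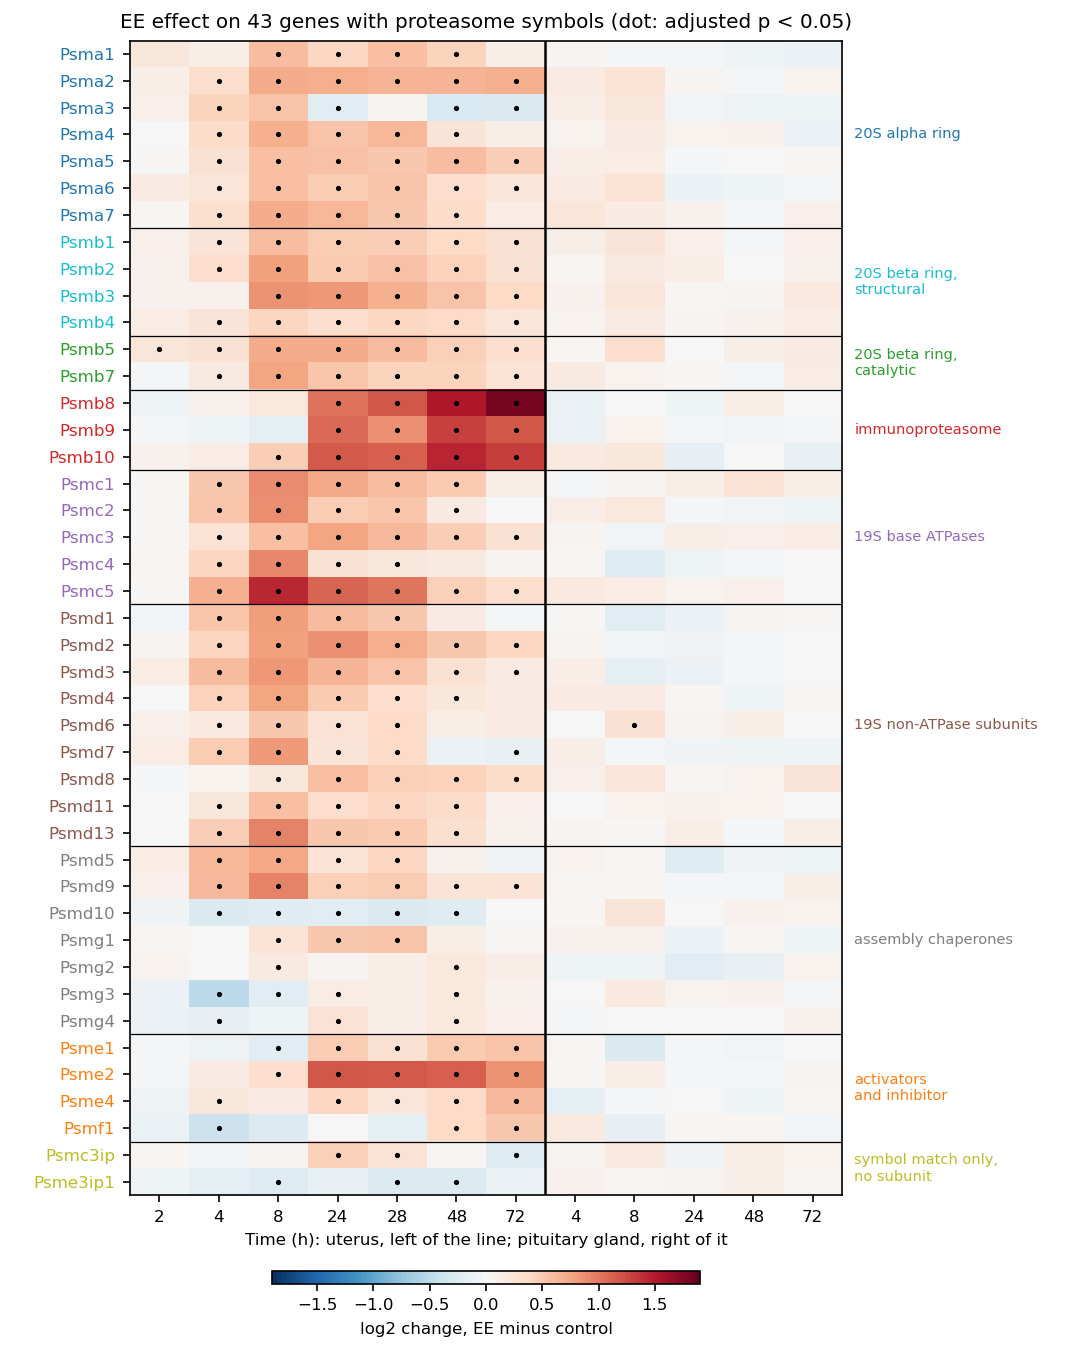
Log2 change, EE minus control, of the 43 genes (down, grouped by role) at each time (across, h) in uterus, left of the line, and pituitary gland, right of it. Red is higher with EE, blue lower, and a dot marks an adjusted p under 0.05. The colour of most core and cap genes is deepest at 8 h (Psmc5, 1.43), that of Psmb8, Psmb9, Psmb10 and Psme2 from 24 h on, and 1 dot stands in the pituitary columns.

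The alpha ring, whose N termini gate the entry of the barrel, rose as a group. All 7 alpha genes rose at 8 h, with changes of 0.54 to 0.71 and a median of 0.59. Psma2 (1398856_at) had 8 h intensities of 607, 616, 617, 640.0 and 706 on EE arrays, against 342, 366, 393, 395 and 397 on control arrays (log2 0.71 ± 0.07, adjusted p = 2.73e-13). At 72 h its intensities were 632, 656, 695, 737 and 861 on EE arrays, against 404, 419.7, 427, 438 and 478 on control arrays (log2 0.68 ± 0.07, adjusted p = 2.29e-12). The groups did not overlap at either time, and Psma2 kept a like change where most alpha genes had come back towards control. Psma1, Psma4 and Psma7 were at 0.12, 0.12 and 0.15 at 72 h and did not pass, while Psma5 (0.47) and Psma6 (0.23) rose.

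Psma3 (1368508_at) went both ways. At 8 h it had 222, 232, 235, 252 and 281 on EE arrays, against 140.4, 146, 147, 177 and 184 on control arrays (log2 0.54 ± 0.08, adjusted p = 5.93e-08), with every EE array above every control array. At 72 h it had 104, 111, 114, 122 and 138 on EE arrays, against 138, 139.6, 151, 152 and 159 on control arrays (log2 -0.27 ± 0.08, adjusted p = 0.00396), with no overlap and the EE arrays below. It fell by 0.22 at 24 h and by 0.29 at 48 h too. The call at 24 h was lost when arrays were centred on their medians (-0.16, adjusted p = 0.0954), after quantile normalization (-0.19, adjusted p = 0.0554), and without control array 37 or 39 or EE array 44 (-0.19, -0.20 and -0.19, adjusted p = 0.0553, 0.0526 and 0.0593). A further probe set that Psma3 shares with another gene was left out.

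The structural beta subunits Psmb1, Psmb2, Psmb3 and Psmb4 complete the beta rings. None of them cuts peptide bonds in mammals. All 4 rose at 8, 24, 28, 48 and 72 h. Their median was 0.69 at 8 h and 0.29 at 72 h. Psmb3 (1398853_at) was at 0.08 ± 0.08 at 4 h, with an adjusted p of 0.412 and overlapping groups. At 8 h it had 614, 636, 687, 696 and 764 on EE arrays, against 350.2, 353, 358, 368 and 382 on control arrays, with no overlap (log2 0.85 ± 0.08, adjusted p = 3.31e-14). Its step between 4 and 8 h, 0.77 ± 0.12, was the largest of the 43 genes (adjusted p of the difference = 1.42e-06).

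Of the standard catalytic subunits, Psmb5 carries the chymotrypsin-like and Psmb7 the trypsin-like activity. Psmb5 (1371348_at) was the only gene called at 2 h, with 663, 731, 769.7, 803 and 806 on EE arrays, against 539.5, 620.3, 644, 657 and 739.6 on control arrays. These groups overlapped (log2 0.23 ± 0.06, adjusted p = 0.0161), and the call was lost without control array 6 (0.17, adjusted p = 0.132), EE array 10 (0.21, adjusted p = 0.0518) or EE array 12 (0.21, adjusted p = 0.0697). It was also lost when only the groups compared were fitted (adjusted p = 0.162). At 8 h Psmb5 had 896, 945, 1047, 1075 and 1154 on EE arrays, against 605, 605, 608, 616 and 640.1 on control arrays (log2 0.70 ± 0.06, adjusted p = 4.62e-15), and the groups lay far apart. Psmb7 (1367656_at) had 821, 951, 955, 959 and 1019.8 on EE arrays, against 531, 533, 536, 559 and 559 on control arrays at 8 h (log2 0.76 ± 0.07, adjusted p = 4.66e-16), also without overlap. Both stayed called to 72 h, where Psmb5 was at 0.31 ± 0.06 and Psmb7 at 0.26 ± 0.07.

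The ATPases of the 19S base, which unfold the substrate, showed the largest early changes. All 5 measured members rose at 4, 8, 24 and 28 h, with a median of 0.51 at 4 h and 0.89 at 8 h. Psmc5 (1367833_at) had 179, 182, 197, 209 and 219.6 on EE arrays, against 97.5, 106, 109.6, 117 and 129.7 on control arrays at 4 h (log2 0.68 ± 0.10, adjusted p = 2.02e-08). At 8 h it had 342, 359.8, 364, 395 and 414 on EE arrays, against 110.3, 115, 122, 123 and 128 on control arrays, a rise of 2.69-fold (log2 1.43 ± 0.10, adjusted p = 2.65e-20). This was the largest change of any of the 43 genes at 8 h, and no EE array came near a control array. At 72 h Psmc5 had 151, 183, 196, 214 and 220.0 on EE arrays, against 123, 129, 131, 153 and 201 on control arrays (log2 0.34 ± 0.10, adjusted p = 0.00242), and the groups overlapped through 1 high control array. By then Psmc1 (0.10), Psmc2 (0.01) and Psmc4 (0.05) no longer passed, and Psmc3 (0.28) did.

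The non-ATPase subunits build the scaffold and the ubiquitin receptors of the cap. Of 9, 8 rose at 4 h and 9 at 8, 24 and 28 h, and the median was 0.43 at 4 h and 0.78 at 8 h. Psmd13 (1371617_at), a lid subunit, had 174, 191, 199, 229 and 242 on EE arrays, against 90.1, 92.3, 92.5, 93.8 and 94.4 on control arrays at 8 h (log2 0.94 ± 0.07, adjusted p = 2.01e-19). The control arrays lay very close together and far below the EE arrays. At 72 h it was at 0.08 ± 0.07 (adjusted p = 0.281) with overlapping groups. Psmd2, a scaffold of the base, was highest at 24 h (0.87 ± 0.08) and was still up at 72 h (0.40 ± 0.08). Psmd8, a lid subunit, was at 0.06 ± 0.06 at 4 h and did not pass, and reached 0.56 ± 0.06 at 24 h.

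Psmd7 (1389245_at), which pairs with the deubiquitinase of the lid, had 373, 374, 377, 383 and 399 on EE arrays, against 196, 200.01, 204, 210.2 and 218 on control arrays at 8 h (log2 0.80 ± 0.06, adjusted p = 1.01e-19), with no overlap. At 72 h it had 184, 202, 219, 231 and 234 on EE arrays, against 199, 235, 242, 250.4 and 266 on control arrays (log2 -0.14 ± 0.06, adjusted p = 0.0324), with overlap. This call was lost without control array 73, 75 or 77 or EE array 82 or 84 (-0.09 to -0.13, adjusted p = 0.0577 to 0.174), and when arrays were centred on their medians (-0.09, adjusted p = 0.166). It was also lost when only the groups compared were fitted (adjusted p = 0.183). The ubiquitin receptor Psmd4 was at 0.75 ± 0.08 at 8 h and 0.16 ± 0.08 at 72 h, where it did not pass. A second probe set of Psmd11, a lid subunit, was also higher at 4, 8, 24 and 28 h, at 0.32, 0.35, 0.14 and 0.16, where the first was at 0.21, 0.57, 0.33 and 0.40. It was lower at 48 h (-0.15, adjusted p = 0.031) and 72 h (-0.24, adjusted p = 0.000635), where the first was at 0.35 and 0.10.

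The assembly chaperones, which help build the particle and leave it afterwards, did not move as one. Psmd9 (1368184_at), a chaperone of the base, had 132, 133, 141, 146 and 164 on EE arrays, against 56.8, 57.3, 60.0, 61.7 and 62.1 on control arrays at 8 h (log2 0.94 ± 0.09, adjusted p = 1.12e-14), with EE arrays above 2 times the control arrays. Psmd5, another base chaperone, rose at 4 h (0.63 ± 0.08) and 8 h (0.73 ± 0.08). Psmd10, the third base chaperone, known as gankyrin, fell at 4, 8, 24, 28 and 48 h, by 0.21 to 0.27. Its call at 24 h was lost when arrays were centred (-0.15, adjusted p = 0.0839) or after quantile normalization (-0.16, adjusted p = 0.0724). At 4 h Psmd10 had 84.7, 90.5, 90.6, 96.1 and 99.5 on EE arrays, against 106, 108, 121, 124 and 128 on control arrays, without overlap. Psmg3 (1388306_at), a chaperone of the alpha ring, fell at 4 h, with 61.5, 62.9, 64.8, 65.2 and 65.9 on EE arrays, against 91.9, 94.5, 99.0, 115 and 118 on control arrays (log2 -0.50 ± 0.06, adjusted p = 1.26e-09). This was the largest fall among the 43 genes in uterus, and no arrays overlapped. Psmg3 was higher at 48 h (0.20 ± 0.06). Psmg1, an alpha-ring chaperone, rose at 8, 24 and 28 h, most at 28 h (0.53 ± 0.08), and Psmg2 and Psmg4 stayed between -0.15 and 0.28. These changes were small, not absent. The effect on Psmg2 in uterus exceeded that in pituitary at 24 h (0.28 ± 0.11, limma, adjusted p = 0.0374). It did so at 48 h too (0.33 ± 0.11, limma, adjusted p = 0.0138), but not at 4, 8 or 72 h. Psmg4 passed that test at no time.

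**Figure D2:**
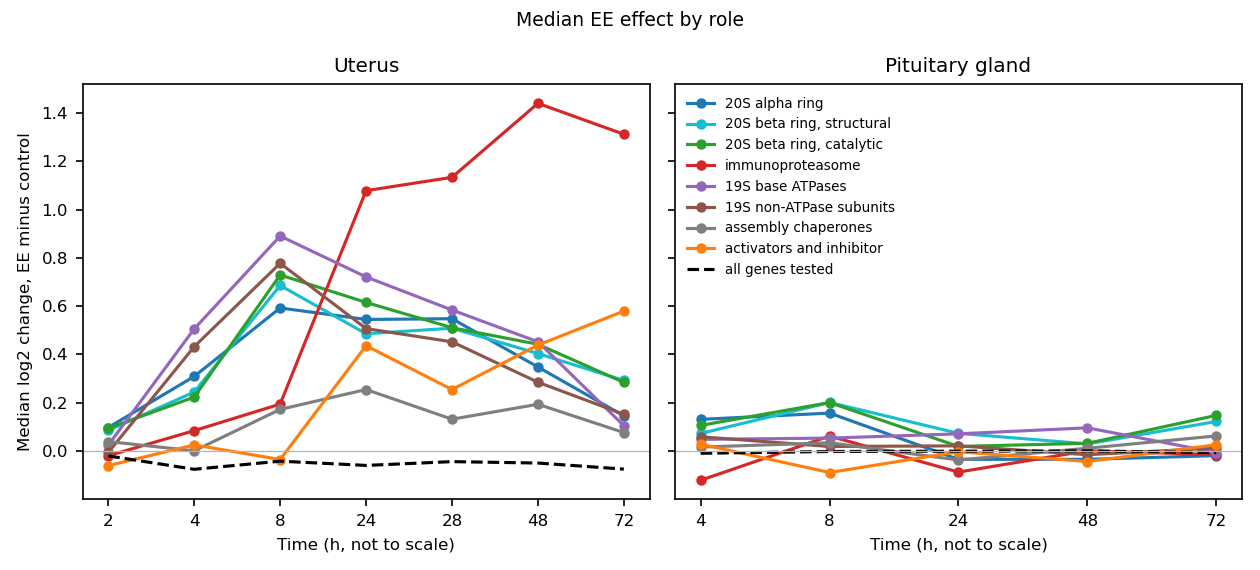
Median log2 change, EE minus control, of the genes of each role (lines) at each time (h, not to scale) in uterus, left, and pituitary gland, right, with all genes tested as a dashed line. In uterus the 19S base ATPases peak at 8 h (0.89) and reach 0.10 at 72 h, while the 3 immunoproteasome genes stand at 0.19 at 8 h (0.37 without control array 25) and 1.31 at 72 h.

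The immunoproteasome genes followed another course. None of the 3 passed at 2 or 4 h, 1 passed at 8 h and 3 of 3 rose at 24, 28, 48 and 72 h, with medians of 0.19 at 8 h (0.37 without control array 25), 1.08 at 24 h, 1.13 at 28 h, 1.44 at 48 h and 1.31 at 72 h. Psmb8 (1367786_at), the counterpart of Psmb5, had 113, 119, 151, 179.5 and 216 on EE arrays, against 72.9, 118, 122, 139 and 226 on control arrays at 8 h (log2 0.19 ± 0.20, adjusted p = 0.398). The highest control value was that of array 25, and without it the change was 0.37 ± 0.20 (adjusted p = 0.106). At 24 h it had 229, 245, 255, 273 and 325 on EE arrays, against 91.1, 116, 116, 117 and 128 on control arrays (log2 1.04 ± 0.20, adjusted p = 8.58e-06). The groups overlapped at 8 h and were apart from 24 h on. At 72 h Psmb8 had 335, 365, 394, 482 and 609.8 on EE arrays, against 76.6, 85.5, 104, 119 and 127 on control arrays, a rise of 3.48-fold (log2 1.80 ± 0.20, adjusted p = 7.19e-12), the largest change of the 43 genes at any time.

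Psmb9 (1370186_at), the counterpart of Psmb6, had 52.2, 65.1, 70.7, 86.3 and 91.4 on EE arrays, against 61.4, 68.2, 74.6, 76.7 and 179.7 on control arrays at 8 h. The highest control value was that of array 25, and the change was -0.18 ± 0.14 with this array (adjusted p = 0.255) and 0.03 ± 0.13 without it (adjusted p = 0.856). At 24 h Psmb9 had 142, 145, 161, 181 and 184 on EE arrays, against 51.3, 57.3, 64.1, 64.6 and 67.1 on control arrays (log2 1.08 ± 0.14, adjusted p = 1.61e-09), and at 48 h 192, 192, 198, 201 and 202 on EE arrays, against 49.1, 55.6, 61.7, 65.5 and 82.6 on control arrays (log2 1.30 ± 0.14, adjusted p = 7.59e-12). No arrays overlapped at 24 or 48 h, and the EE arrays of 48 h lay very close together.

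Psmb10 (1374033_at), the counterpart of Psmb7, was called earliest of the 3. At 8 h it had 108, 124, 133, 134 and 156 on EE arrays, against 72.1, 76.6, 77.2, 79.8 and 127 on control arrays (log2 0.47 ± 0.11, adjusted p = 9.69e-05), and without control array 25 the change was 0.59 ± 0.11 (adjusted p = 2.38e-06). At 48 h it had 205, 212, 216, 225 and 267 on EE arrays, against 62.8, 62.9, 63.5, 63.8 and 63.9 on control arrays (log2 1.44 ± 0.11, adjusted p = 4.79e-18). The overlap at 8 h came through array 25 alone, and at 48 h the EE arrays were above 3 times the control arrays. Psmb10 was at 1.31 ± 0.11 at 72 h.

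**Figure D3:**
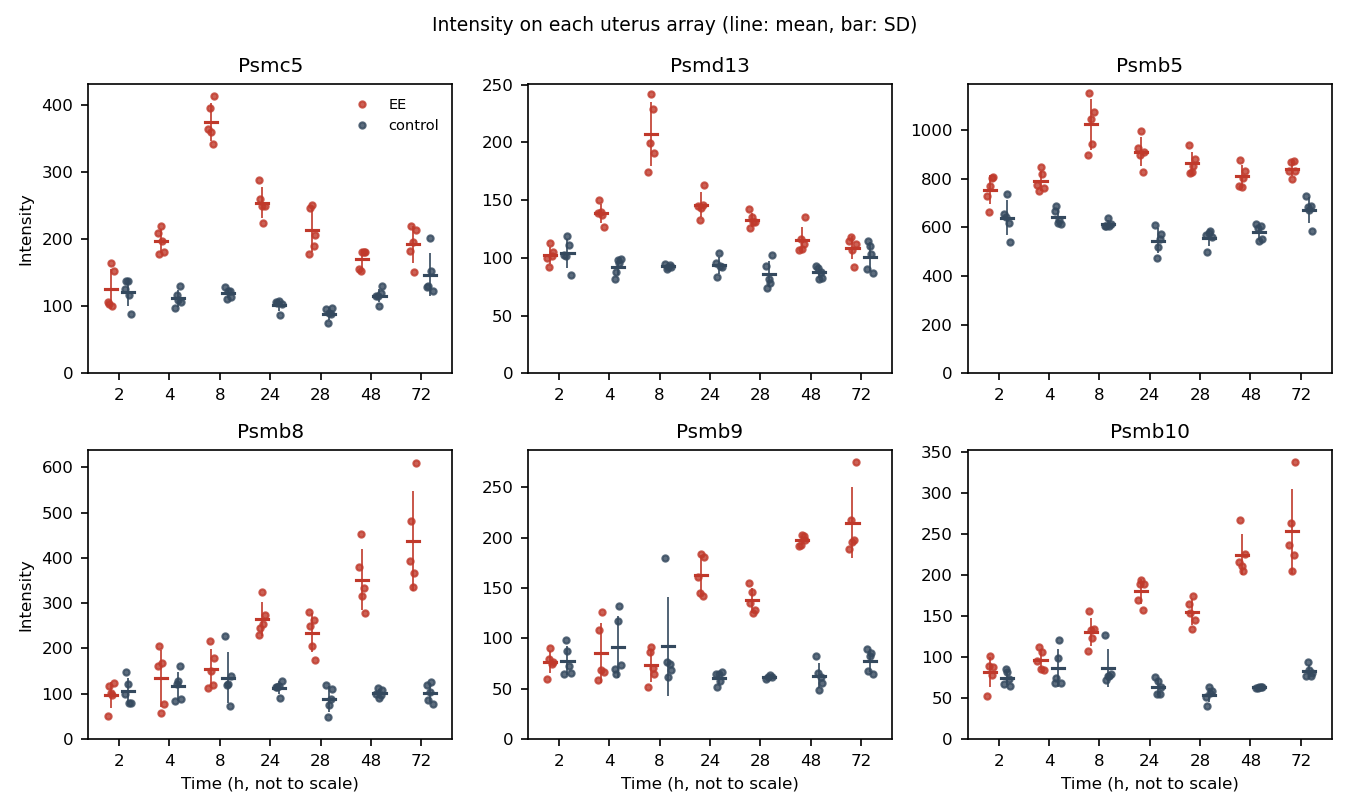
Intensity on each uterus array (points) at each time (h, not to scale), EE in red left of control in dark blue, with the mean (line) and SD (bar) of the group, for the cap genes Psmc5 and Psmd13, the standard catalytic gene Psmb5 and the immunoproteasome genes. Psmc5 and Psmd13 are highest at 8 h, and Psmb8 and Psmb10 are highest at 72 h. The single high control points at 8 h of Psmb8 (226), Psmb9 (179.7) and Psmb10 (127.4) are array 25.

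Among the activators, Psme2 (1367710_at), the beta subunit of PA28, rose late. At 24 h it had 422, 460.5, 468, 470.4 and 503 on EE arrays, against 163, 175, 192, 194 and 215 on control arrays (log2 1.19 ± 0.09, adjusted p = 8.49e-17), with no overlap, and it was at 0.86 ± 0.09 at 72 h. At 8 h it was at 0.31 ± 0.09, and at 0.39 ± 0.10 without control array 25 (adjusted p = 0.000396). Psme1, the alpha subunit of PA28, was lower at 8 h (-0.22 ± 0.09, adjusted p = 0.0249), a call lost without control array 25 (-0.19, adjusted p = 0.0753), control array 28 (-0.19, adjusted p = 0.0677), EE array 31 (-0.16, adjusted p = 0.111) or EE array 34 (-0.17, adjusted p = 0.0953). The call was also lost when only the groups compared were fitted (adjusted p = 0.0676). From 24 h on Psme1 was higher, and at 48 h it had 770.2, 772, 840.2, 843 and 942 on EE arrays, against 512, 544, 569, 616 and 666 on control arrays (log2 0.50 ± 0.09, adjusted p = 1.93e-06), without overlap.

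Psme4 encodes the activator PA200, which is known for roles in the nucleus. By its brightest probe set (1368817_at) it rose most at 72 h, with 232, 246, 261, 262 and 274 on EE arrays, against 137, 138, 155, 166 and 184 on control arrays (log2 0.62 ± 0.08). Its 3 probe sets did not agree: at 48 h they were at 0.37, 0.32 and -0.37, and the last of these (1368818_at, adjusted p = 0.000246) was also lower at 8, 24 and 28 h. Psmf1 (1389387_at), which encodes the inhibitor PI31, had 103, 121, 147, 151 and 157 on EE arrays, against 142, 194, 203, 203 and 208 on control arrays at 4 h (log2 -0.41 ± 0.13, adjusted p = 0.00419). At 72 h it had 172, 175, 215, 229.8 and 264 on EE arrays, against 112, 123, 133, 141 and 188 on control arrays (log2 0.51 ± 0.13, adjusted p = 0.000383). The groups overlapped at both times, and the change had opposite signs. Of the 2 genes that matched by symbol alone, Psmc3ip rose at 24 h (0.45 ± 0.10) and was lower at 72 h (-0.24 ± 0.10), a call lost without control array 75 or 77 or EE array 81 or 84 (adjusted p = 0.0718, 0.0778, 0.163 and 0.164) and when arrays were centred (adjusted p = 0.0823). Quantile normalization (adjusted p = 0.0738) or a fit of only the groups compared (adjusted p = 0.0943) lost it too. Psme3ip1 was lower at 8, 28 and 48 h (-0.24 to -0.26), and was at -0.18 and not called without EE array 31 at 8 h (adjusted p = 0.091) or EE array 69 at 48 h (adjusted p = 0.095). Its 48 h call was also lost when only the groups compared were fitted (adjusted p = 0.1).

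**Figure D4:**
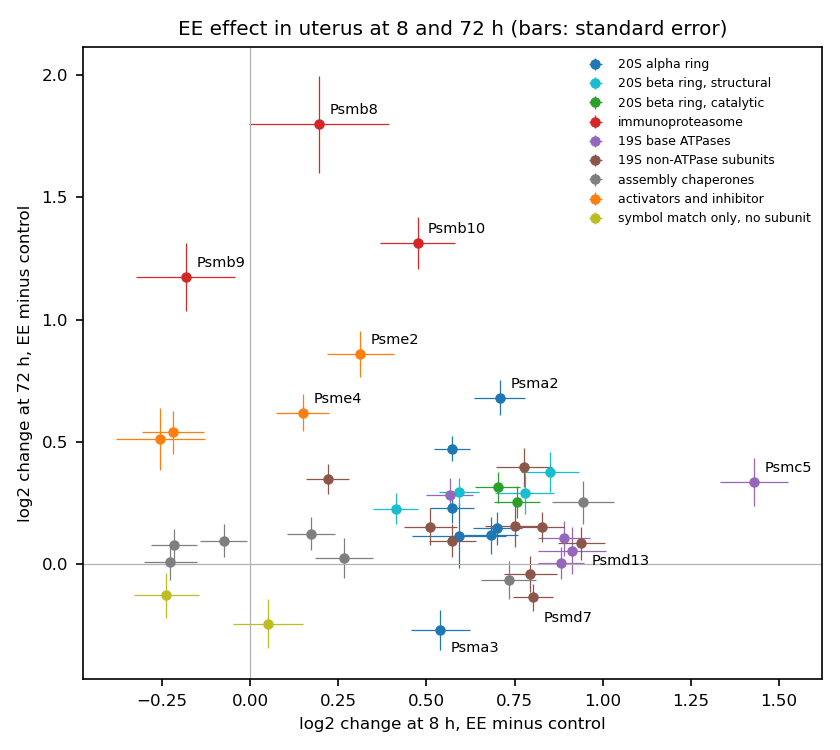
Log2 change, EE minus control, in uterus at 8 h (across) against 72 h (up) for the 43 genes, coloured by role, with standard errors as bars. Psmc5 stands far right (1.43 at 8 h, 0.34 at 72 h), and Psmb8 far up (0.19 at 8 h, or 0.37 without control array 25, and 1.80 at 72 h). The 2 axes use separate arrays.

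The next question was between which times the response changed. The EE effect differed between the 7 uterus times for 39 of 43 genes (limma F test), where 81.7% of all genes tested were called. The exceptions were Psma1, Psmd10, Psmg2 and Psme3ip1. Successive differences share arrays of the time between them. From 2 to 4 h the effect rose for 18 genes and fell for 1 (33% of all genes called, 14.8% higher and 18.2% lower), led by Psmc5 (0.65 ± 0.14, adjusted p = 0.000167) and Psmd1 (0.59 ± 0.10, adjusted p = 9.06e-06), with Psmg3 the gene that fell (-0.39 ± 0.09, adjusted p = 0.000656). From 4 to 8 h it rose for 21 genes and fell for 0 (19.6% of all called, 9.28% higher and 10.3% lower), or for 11 after quantile normalization, and the median of the 43 genes was 0.32 against 0.01 over all genes. All 6 beta genes outside the immunoproteasome and all 7 alpha genes had a positive difference there, and Psmb7 (0.59 ± 0.09) and Psmc5 (0.75 ± 0.14) had some of the largest.

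From 8 to 24 h the effect rose for 9 genes and fell for 11. These shares were close to those of all genes (46.3% called, 23.6% higher and 22.7% lower). The counts were 11 and 7 when arrays were centred and 12 and 8 after quantile normalization. All 3 immunoproteasome genes, Psme1 and Psme2 were among those that rose. Psmb9 shifted by 1.26 ± 0.20 (adjusted p = 3.44e-07), Psme2 by 0.87 ± 0.13 (adjusted p = 1.55e-07) and Psmb8 by 0.84 ± 0.28 (adjusted p = 0.0106). Without control array 25 these shifts were 1.05 ± 0.17, 0.80 ± 0.13 and 0.67 ± 0.28 (adjusted p = 1.11e-06, 1.18e-06 and 0.0423). Psma3 (-0.76 ± 0.12), Psmc4 (-0.62 ± 0.14) and Psmd7 (-0.56 ± 0.08) led those that fell. From 24 to 28 h 0 of 43 genes passed in limma, with 1 at an unadjusted p under 0.05 (8.29% of all genes called). From 28 to 48 h 1 rose, Psmf1 (0.55 ± 0.18), and 9 fell (26.8% of all called, 12.8% higher and 14% lower), led by Psmc5 (-0.57 ± 0.14, adjusted p = 0.00112) and Psmd7 (-0.48 ± 0.08, adjusted p = 4.72e-06). From 48 to 72 h 0 passed in limma, with 7 at an unadjusted p under 0.05 (0.509% of all called).

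Each immunoproteasome subunit takes the place of 1 standard subunit, so the pair was also compared within each array. These pairs were chosen after the values were seen, and the log2 difference depends on the 2 probe sets, so that its change with EE and not its level can be read. Psmb10 minus Psmb7 was -1.91 ± 0.10 on EE arrays and -2.55 ± 0.15 on control arrays at 24 h (SD, n = 5 each). At 72 h it was -1.37 ± 0.22 on EE arrays and -2.43 ± 0.15 on control arrays. EE minus control was 0.64 at 24 h, 0.72 at 28 h, 1.01 at 48 h and 1.06 at 72 h, and at these times no arrays overlapped (exact permutation p = 0.00794, two-sided, the smallest 5 against 5 arrays can give, adjusted p = 0.0317 over 24 tests). Psmb8 minus Psmb5 was -0.93 ± 0.32 on EE arrays and -2.41 ± 0.17 on control arrays at 72 h, a difference of 1.49, and the difference was 1.06 at 48 h (exact permutation, adjusted p = 0.0317 for both). At 24 h it was 0.33 (exact permutation, adjusted p = 0.0544) and at 28 h 0.57 (exact permutation, adjusted p = 0.0635), and neither passed. At 8 h both pairs went the other way, with -0.51 for Psmb8 minus Psmb5 (exact permutation, adjusted p = 0.114) and -0.28 for Psmb10 minus Psmb7 (exact permutation, adjusted p = 0.0635). Without control array 25 these were -0.33 and -0.16 (exact permutation, adjusted p = 0.2 and 0.114). In pituitary no pair passed, and 3 arrays against 3 cannot give an exact p below 0.1. Psmb10 minus Psmb7 was lower there with EE at 24 h (-0.19) and 72 h (-0.28), without overlap (exact permutation p = 0.1 for both). At 4, 8 and 48 h it was at 0.01, 0.15 and 0.04. Psmb8 minus Psmb5 lay between -0.35 (8 h) and 0.01 (48 h).

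**Figure D5:**
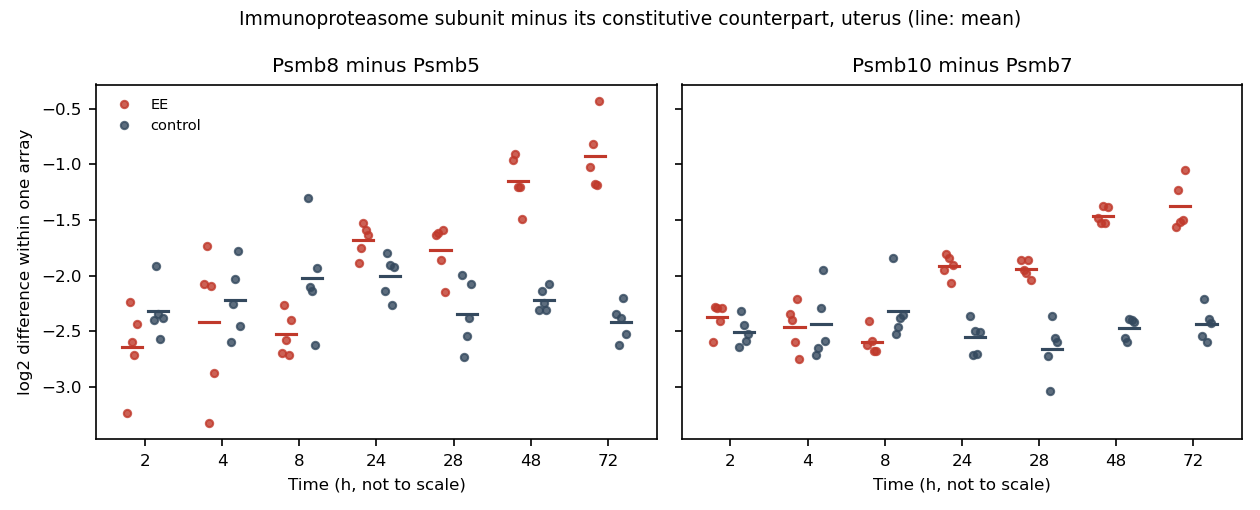
Log2 intensity difference within each uterus array (points; line, mean of the group) of Psmb8 minus Psmb5, left, and Psmb10 minus Psmb7, right, at each time (h, not to scale), EE in red left of control in dark blue. From 24 h on the EE means lie above the control means, by 1.49 for Psmb8 minus Psmb5 and 1.06 for Psmb10 minus Psmb7 at 72 h.

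Markers of immune cells were also higher in uterus at the late times. Of 24 markers listed, 23 had a probe set and 11 were tested at 48 and at 72 h. At 48 h 8 of 11 were higher and 1 lower, where 24.2% of all genes tested were higher and 33% lower. At 72 h 9 of 11 were higher and 0 lower, where 23.3% of all were higher and 36.9% lower. The summed intensity of the 10 markers with values on all uterus arrays was 4796 to 7540 on EE arrays and 1872 to 2541 on control arrays at 72 h, and 3344 to 4481 on EE arrays and 1663 to 2397 on control arrays at 48 h. Such a sum of linear intensities follows the brightest markers. Lyz2 averaged 837 over the uterus arrays and Cd74 399, against 38.8 for Cpa3. At 24 h the sums overlapped, with 1508 to 3396 on EE arrays and 1731 to 2241 on control arrays. Of 12 markers tested at 24 h, 6 were higher and 3 lower. At 28 h the sums were 1809 to 3122 on EE arrays and 1733 to 2164 on control arrays, and 7 of 12 markers were higher and 3 lower. Over all genes tested, 24.9% were higher and 34.4% lower at 24 h, and 28.5% and 34.3% at 28 h. The T cell markers Cd3e and Cd3g, the myeloid marker Itgam and the eosinophil markers Ccr3 and Prg2 had no value on any array, Cd4 had 5 values and Cd8a 1 over the 70 uterus arrays, and the pan-leukocyte marker Ptprc had 8. The monocyte gene Lyz2 was at 0.81 ± 0.15 at 24 h and 2.04 ± 0.15 at 72 h, while Cd74, the invariant chain of class II antigen presentation, was lower at 24 h (-0.65 ± 0.17) and 48 h (-0.79 ± 0.17). The epithelial keratin genes Krt8 (2.29 ± 0.12) and Krt19 (2.93 ± 0.23) were also higher at 72 h. The part of immune or epithelial cells in the late changes was not tested.

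Genes that work with the immunoproteasome in antigen presentation were also higher late. Of 11 listed, 7 were tested at 48 and at 72 h and all 7 were higher at both, with medians of 0.78 and 0.84. Among all genes tested, 24.2% were higher at 48 h and 23.3% at 72 h. B2m, the light chain of class I molecules, was at 0.17 ± 0.11 at 24 h without passing and 1.11 ± 0.11 at 72 h. Tapbp, the chaperone that holds class I molecules at the peptide transporter, was at 0.47 ± 0.11 at 24 h and 0.84 ± 0.11 at 72 h. Irf1, an interferon-induced transcription factor, was at 0.60 ± 0.19 at 24 h and 1.09 ± 0.19 at 72 h. Tap1, the neighbour of Psmb8 and Psmb9, was not tested in uterus because too few arrays had a value for it.

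Some partners of the standard proteasome were higher in uterus at each time from 4 h on. Among 8 partners with a probe set, 5 were higher and 1 lower at 8 h, with a median of 0.49. At that time 28.9% of all genes tested were higher and 35.5% lower. At 2, 4, 24, 28, 48 and 72 h 0, 3, 4, 5, 4 and 3 of the 8 were higher. At the same times 0, 0, 1, 1, 2 and 2 were lower, with the shares of all genes as given above. The median was 0.15 at 4 h, 0.29 at 28 h and 0.20 at 72 h. Adrm1, a ubiquitin receptor of the cap, was at 0.89 ± 0.07 at 8 h and -0.28 ± 0.07 at 72 h. Pomp, the chaperone that completes the core, was at 0.49 ± 0.06 at 8 h and 0.50 ± 0.06 at 72 h. Of 11 genes for delivery of substrates, 8 were higher and 1 lower at 8 h, with a median of 0.49, among them the unfolding ATPase gene Vcp (0.89 ± 0.05), its adaptor gene Nsfl1c (0.94 ± 0.12) and the shuttle gene Rad23b (0.84 ± 0.07). At 72 h 3 of these 11 were higher and 4 lower, where 23.3% of all genes tested were higher and 36.9% lower.

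Of 8 genes tested for transcriptional control of the proteasome, 6 were higher and 1 lower at 4 h, while 0 were higher and 5 lower at 24 h. Over all genes tested, 23.6% were higher and 34.5% lower at 4 h, and 24.9% and 34.4% at 24 h. Nfe2l1 was at 0.42 ± 0.10 at 4 h and -0.38 ± 0.10 at 24 h, and both passed. Its partner genes Mafg (0.33 ± 0.10) and Mafk (0.49 ± 0.07) were higher at 4 h, and Ddi2, whose protease activates the Nfe2l1 product, was at 0.17 ± 0.08 at 4 h and -0.66 ± 0.08 at 48 h. Nfya, a subunit of the factor that binds CCAAT, was at 0.48 ± 0.08 at 8 h and -0.58 ± 0.08 at 72 h. The genes of all 4 lists were chosen with earlier results known, and nothing about the proteasome genes was tested through them.

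The pituitary gland was asked the same question. At 8 h 1 of 43 genes rose and 0 fell, where 3.59% of all genes tested were called, 1.75% higher and 1.84% lower, and 13 of the 43 had an unadjusted p under 0.05. At 4 h 0 of 43 passed in limma (1.49% of all called), and likewise 0 at 24 h (0.103% of all called), 48 h (0.294%) and 72 h (2.66%). At an unadjusted p under 0.05 these were 2 genes at 4 h, 2 at 24 h, 1 at 48 h and 2 at 72 h. All genes were not counted at that threshold, so these numbers and the 13 at 8 h cannot be set against the shares called. The medians of the 43 genes were 0.06 at 4 h, 0.08 at 8 h, 0.00 at 24 h, -0.01 at 48 h and 0.04 at 72 h. Psmd6 (1371851_at), a lid subunit, was the gene called at 8 h, with 416, 451 and 513 on EE arrays, against 315, 377 and 422 on control arrays (log2 0.29 ± 0.08, adjusted p = 0.0447). Its groups overlapped, and the call was lost without control array 26 or 28 or EE array 32 or 34 (adjusted p = 0.0747, 0.264, 0.0787 and 0.258). It was also lost with an offset of 1, centring, quantile normalization or only the groups compared (adjusted p = 0.0574 to 0.421). Psmc5 had 182, 195 and 238 on EE arrays, against 154, 185 and 207 on control arrays at 8 h (log2 0.15 ± 0.10, adjusted p = 0.425), and Psmb8 had 55.7, 78.4 and 81.9 on EE arrays, against 61.8, 71.02 and 85.1 on control arrays at 72 h (log2 -0.01 ± 0.16, adjusted p = 0.988). Both sets of groups overlapped. The effect differed between pituitary times for 0 of 43 genes (limma F test, 2 at an unadjusted p under 0.05, 1.11% of all genes called).

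The effect in uterus minus that in pituitary was tested in a fit of all arrays. At 4 h 11 genes were more raised in uterus and 2 less (33.8% of all genes called, 15.3% more raised and 18.6% less). At 8 h these were 27 and 2 (48.1% of all called, 22.6% and 25.5%), and at 24 h 34 and 0 (40.1% of all called, 17.8% and 22.3%). At 48 h they were 24 and 1 (36.4% of all called, 15% and 21.4%), 25 genes in all, against 15 after quantile normalization and 12 with a replicate block of same-numbered arrays. At 72 h they were 11 and 0 (38.6% of all called, 14.4% and 24.2%). At 8 h the difference was 1.28 ± 0.15 for Psmc5 (adjusted p = 2.21e-11) and 1.14 ± 0.16 for Psmc4 (adjusted p = 4.12e-09), and 0 of the 3 immunoproteasome genes passed, with control array 25 or without it. At 72 h it was 1.81 ± 0.30 for Psmb8 (adjusted p = 7.73e-07), 1.45 ± 0.18 for Psmb10 (adjusted p = 1.59e-10) and 1.19 ± 0.23 for Psmb9 (adjusted p = 1.75e-05). Only Psma2, Psma5, Psma6 and Psmd2 of the 34 genes of the standard core, cap and chaperones still passed at 72 h.

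The control arrays gave the levels without EE. Across the 7 control times in uterus 19 of 43 genes differed (limma F test), where 32.8% of all genes tested did. Across the 5 control times in pituitary 0 of 43 did, where 1.6% of all genes tested did by adjusted p. Of the 43, 5 had an unadjusted p under 0.05 there. Psme2 (adjusted p = 5.59e-05) and Psmd1 (adjusted p = 0.000375) led those of uterus. Between tissues, by the range over 35 uterus and 15 pituitary control arrays, 7 genes had ranges that did not overlap (Psma1, Psma3, Psmc2, Psmd2, Psmd5, Psmd7 and Psme2), and all 7 were higher in pituitary. Over all genes 35% had such ranges, 16.1% with uterus higher and 18.9% with pituitary higher. Psme2 averaged 225 ± 38.6 in uterus and 521 ± 37.5 in pituitary (SD). Psmb8 averaged 109 ± 31.2 in uterus and 75.4 ± 11.02 in pituitary, with overlapping ranges. These levels describe each probe set across tissues and were not tested.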

How the data were processed

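RNA of uterus and pituitary gland was labelled from 5 µg of total RNA and hybridised to Affymetrix RAE230A arrays, per the labels' protocols. The authors deposited 1 linear intensity per probe set and array. How the intensities were summarised and scaled, and why 37.2% of table cells are blank, is not given in the sources used here. A blank was left missing.

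Of 15923 probe sets, 12783 named 1 gene and gave 10411 genes, each by its brightest probe set. Values were taken as log2(intensity + 30.4), the offset being the 10th percentile. A model of group means per tissue (both tissues for differences between them) was fitted with limma 3.58.1 in R 4.3.3. A gene needed 3 values per group in uterus and 2 in pituitary. P-values were adjusted by Benjamini-Hochberg over all genes tested. The test was checked on simulated data. Depth does not apply to arrays, and the number of arrays limits the precision.

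Genes shown by array were the immunoproteasome genes and, for each role, the largest called rise and fall. A few others were added after their values were seen: Psmb5, Psmd10, Psme1, Psme4 and Psmd6. The members, gene lists and tests were chosen with earlier results of these data known. Alternatives were the offset, array centring, quantile normalization, stricter value filters, another choice of probe set, fitting only the groups compared, and leaving out each array. The labels do not say whether same-numbered uterus and pituitary arrays share an animal. The deviations of 27 such pairs had r of -0.07 to 0.16 (median 0.07), with 20 above 0, 14 of the 15 EE pairs among them, and 8 over 0.1. As not every pair was over 0.1, the block was kept as an alternative.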

Additional observations from a re-analysis of the deposited data

Results flagged for a closer look

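Of 224 uterus groups examined for the genes shown by array, 14 had an array far from the others, where chance alone marks about 1 in 20 groups. Each group held 5 values, or fewer where Psmb9 was blank, as it had 69 values over 70 uterus arrays. Pituitary groups, of 3 arrays, were not examined. Control array 25 of 8 h in uterus was high for 3 genes: Psmb9 at 179.7 (others 61.4 to 76.7), Psmb10 at 127.4 (others 72.1 to 79.8) and Psme2 at 300 (others 214.4 to 234.8). EE array 12 of 2 h was high for Psma3 at 185.4 (others 161.1 to 165.1) and low for Psmf1 at 102.9 (others 150.5 to 168.7). Psmd9 was low on EE array 8 of 2 h at 37.72 (others 67.96 to 78.85) and on EE array 67 of 48 h at 65.09 (others 79.22 to 84.57). Psma2 was high on EE array 20 of 4 h at 606.6 (others 505.9 to 530.5), and Psmb3 low on EE array 56 of 28 h at 510.7 (others 565.2 to 576.6). Psmb7 was high on EE array 68 of 48 h at 830.2 (others 598.3 to 657.2), and Psmc3ip on EE array 44 of 24 h at 155.2 (others 122.7 to 129.9). Psmc5 was low on control array 41 of 24 h at 86.5 (others 102.9 to 108.6), and Psmf1 on control array 17 of 4 h at 141.7 (others 194 to 208.1). Psme3ip1 was high on control array 61 of 48 h at 185.2 (others 153 to 161.6).

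The effect of EE differed between uterus times for 39 genes (81.7% of all genes tested). Between successive times it differed for 19 genes from 2 to 4 h (33% of all) and 21 from 4 to 8 h (19.6%). From 8 to 24 h it differed for 20 (46.3% of all), and from 28 to 48 h for 10 (26.8%). Between uterus and pituitary it differed for 13 genes at 4 h (33.8% of all), 29 at 8 h (48.1%) and 34 at 24 h (40.1%). At 48 h these were 25 (36.4% of all), and at 72 h 11 (38.6%).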

How the results depend on the processing

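No named value changed sign under any alternative run. Of the 45 named calls, 44 still passed with an offset of 1, 40 with centred arrays, 41 after quantile normalization and 39 when only the groups compared were fitted, which leaves fewer arrays to estimate the spread. The pituitary count at 8 h (1) was 0 with an offset of 1, centring, quantile normalization or only the groups compared, and ranged from 0 to 4 without single arrays (0 without control 26 or 28 or EE 32 or 34, 4 without control 30 or EE 33). The uterus count at 2 h (1) was 0 with only the groups compared, and 0 to 2 without single arrays (0 without control 6 or EE 10 or 12, 2 without EE 7). The change from 4 to 8 h counted 11 genes after quantile normalization (21 otherwise). That from 48 to 72 h (0) counted 1 among genes with a value on every array, and 0 to 1 without single arrays (1 without control 61, 65 or 78 or EE 67 or 81). The tissue difference at 48 h (25) counted 15 after quantile normalization and 12 with a replicate block of same-numbered arrays of both tissues. The other 4 tissue counts stayed within 1.5 times under this block. The cause of these changes was not tested. EE and control arrays share no numbers, so no block was possible within a tissue. Few pituitary arrays and missing values for dim genes limit what can be seen.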
